A study of Homo sapiens with 8 samples.

Results

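The transcriptome of SUM1315 was set against that of SUM159 on Illumina HumanRef-8 v3 bead arrays, with 1 array of SUM1315 and 3 arrays of SUM159, 4 of the 8 arrays of the series. SUM1315 and SUM159 are established human cell lines that the labels call basal-like breast cancer, and comparing the basal-like lines is a stated purpose of the series. The SUM1315 label names no transgene. The SUM159 arrays were of untransfected cells (SUM159), of cells stably transfected with LacZ, a bacterial gene used as a control (SUM159/LacZ), and of cells stably transfected with the homeobox gene IRX5 (SUM159/IRX5). The vector, its promoter and whether a transfected culture was 1 clone are not stated by the labels. The other 4 arrays, of MDA-MB231 and of HMLE mammary epithelial cells transfected with Foxq1, Gcnt2 or LacZ, appear below only side by side with these.

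A gene was counted as different where its intensity in SUM1315 lay at least 2-fold above, or at least 2-fold below, all 3 SUM159 arrays. Of 16922 named genes, 11766 were compared because at least 1 of the 4 arrays lay above the detection limit of 143.6 intensity units. By this rule 740 genes (6.29% of those compared) were higher in SUM1315 and 577 genes (4.9%) were lower, together 11.2%. SUM1315 has 1 array and so no replicate check, and the calls are descriptions by fold. The only spread is that of the 3 SUM159 arrays, which differ in transfection and are not stated to be separate cultures; a limma fit that lends this spread to the SUM1315 array was run as an alternative. In the text below, a set of 3 SUM159 values is given in the order SUM159, SUM159/LacZ and SUM159/IRX5. A fold is the ratio of deposited intensities to the nearest SUM159 array. Where the dimmer side lay below the limit it was set to the limit and the fold is written as "at least". The background is still part of the deposited intensities, so folds of dim genes are too small.

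Basal-like breast cancer lines with high vimentin and little E-cadherin resemble mesenchymal cells, which secrete and remodel an extracellular matrix of collagens, proteoglycans and matricellular proteins. Homeobox genes of the Iroquois and DLX families encode transcription factors that pattern tissues in the embryo, and each member is normally active only in some tissues. Interferon-stimulated genes are switched on by STAT and IRF transcription factors downstream of interferon receptors and encode antiviral proteins, whereas cancer-testis antigens are genes of the germ line, many of them on the X chromosome, that tumours can express.

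The cell type labels were checked against markers listed for this comparison. The intermediate filament gene VIM had an intensity of 42195 in SUM1315, against 27249, 25571 and 26353 in the SUM159 arrays. E-cadherin (CDH1) read 175 in SUM1315, just above the limit, against 104, 96.5 and 105, all below it. The other mesenchymal markers were mixed. CDH2, FN1 and SPARC lay below the limit in SUM1315 and above it in every SUM159 array. TWIST1 was called higher, and ZEB1 and COL1A1 were called in neither direction. Of the other epithelial markers, KRT8 and KRT18 were detected only in SUM159, CLDN4 only in SUM1315 and EPCAM in all 4 arrays. CLDN3, CLDN7 and KRT19 lay below the limit in all 4 arrays. The basal keratins KRT5 and KRT14 and the hormone receptors ESR1 and PGR lay below the limit in all 4 arrays, so these basal keratins that help define a basal-like type were not detected in either line. Other basal and luminal markers were detected. The basal marker EGFR read 372 in SUM1315, against 511, 780 and 910, and CDH3 was above the limit only in SUM1315, at 160. The luminal markers GATA3, FOXA1 and AGR2 lay above the limit in all 4 arrays, and none was called. Markers of other cell types were mixed. PTPRC (leukocytes), CDH5 and VWF (endothelium) and PLIN1 and ADIPOQ (adipocytes) also lay below the limit in all 4 arrays. The endothelial marker PECAM1, at 187 in SUM1315, against 237, 282 and 221, and the adipocyte marker LEP, at 339, against 433, 381 and 459, lay above the limit in all 4 arrays, and neither was called. The monocyte receptor gene CD14 read 148 in SUM1315, against 179, 426 and 1072, and was highest in the array labelled IRX5. The IRX5 probe itself was not higher in that array than in the other SUM159 arrays, as given below, and how the probe lies relative to the transfected sequence is not stated, so the array is called by its label.

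Among themselves the SUM159 arrays differed less by the same rule. Untransfected SUM159 lay at least 2-fold above the other 2 SUM159 arrays for 0.62% of genes and below them for 0.867%, together 1.49%. SUM159/LacZ was above the other 2 for 0.535% and below for 0.051%, together 0.586%. For SUM159/IRX5 the shares were 0.544% and 0.688%, together 1.23%. SUM1315 set against the same pairs of SUM159 arrays gave larger shares in each case. Without SUM159 it was higher for 7.57% and lower for 6.56%, together 14.1%. Without SUM159/LacZ these shares were 6.93% and 5.46%, together 12.4%, and without SUM159/IRX5 they were 7.0% and 6.0%, together 13.0%. Across the genes compared, the Pearson correlation of log2 intensities was between 0.863 and 0.874 for SUM1315 with the SUM159 arrays and between 0.963 and 0.977 among the SUM159 arrays, as a description of arrays that share probes.

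With dim values at the limit, 178 genes (1.51%) were at least 4-fold higher in SUM1315 and 150 (1.27%) at least 4-fold lower. At 8-fold 58 (0.493%) were higher and 53 (0.45%) lower, and at 16-fold 14 (0.119%) were higher and 26 (0.221%) lower. At 16-fold, unlike at 4-fold and 8-fold, more genes were lower than higher. Just inside the threshold stood MOCOS, a molybdenum cofactor sulfurase, at 350.3 in SUM1315, against 701, 1567 and 2622. Just outside it stood MTREX, an RNA helicase, at 1617, against 3232, 4096 and 3344, which was not counted.

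**Figure D1:**
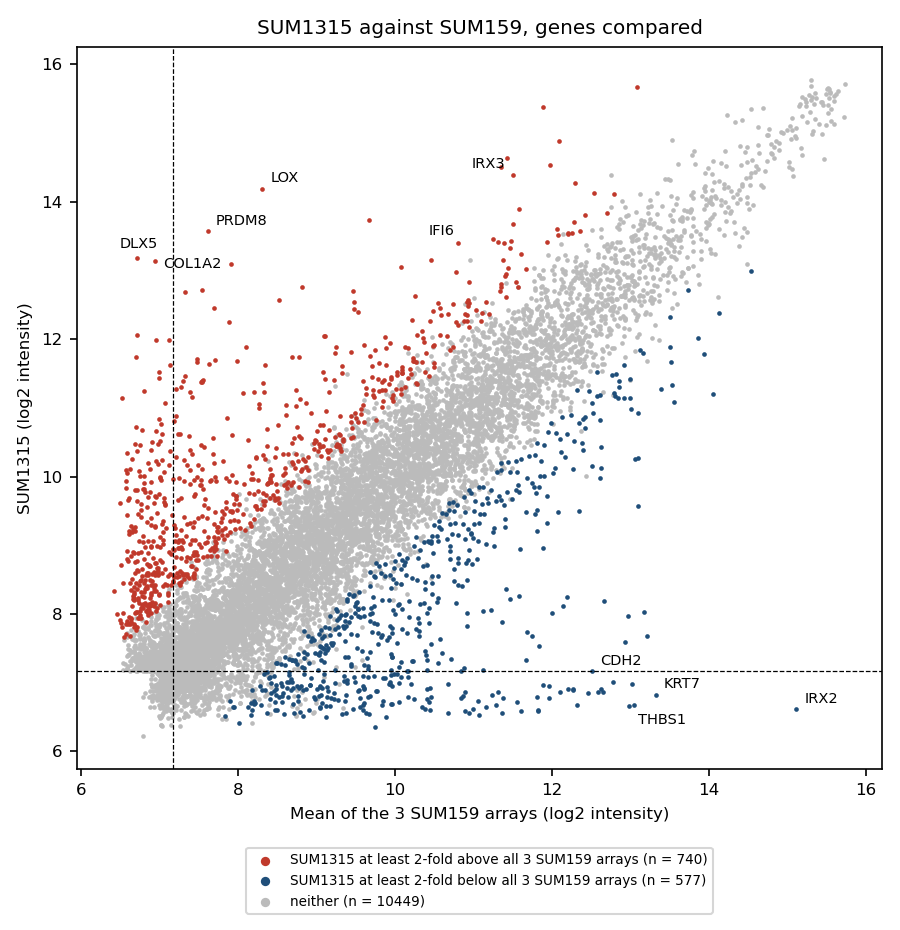
Log2 intensity of each gene compared in SUM1315 (vertical axis) against the mean of the 3 SUM159 arrays (horizontal axis); dashed lines mark the detection limit. Most genes lie along the diagonal, the 740 genes higher in SUM1315 lie above it and the 577 lower genes below it, with IRX2 farthest to the right among those at the limit in SUM1315.

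At the extremes single genes were bright in one line and at background in the other. In 25 genes (0.212%) SUM1315 was at least 8-fold above the limit with all 3 SUM159 arrays at or below it, and in 35 genes (0.297%) all 3 SUM159 arrays were at least 8-fold above the limit with SUM1315 at or below it. The homeobox gene DLX5 and the type I collagen gene COL1A2 had the greatest differences upward, and the homeobox gene IRX2 and the simple epithelial keratin KRT7 the greatest downward; their values are given with their families. PRDM8, a zinc finger regulator of transcription, read 12163 in SUM1315, against 159, 298 and 158 in SUM159, 40.9-fold higher. CYP1B1, a cytochrome P450 that oxidizes estrogens and polycyclic hydrocarbons, read 6759.8 in SUM1315, against 136, 217 and 218, 30.9-fold higher.

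PDE4B, a cyclic AMP phosphodiesterase, read 2764 in SUM1315, against 143, 165 and 88.3, 16.8-fold higher. Among the SUM159 arrays, CYP1B1 was below the limit only in untransfected SUM159, and PDE4B was above it only in SUM159/LacZ. For both genes SUM1315 was far above the limit. EPDR1 (ependymin related), ARMCX2 (an armadillo repeat gene), PLBD1 (phospholipase B domain) and THNSL2 (threonine synthase-like) were below the limit in all SUM159 arrays and at least 29.7-fold, 23.9-fold, 16.96-fold and 15.8-fold higher in SUM1315. COXFA4L3, whose product resembles a cytochrome oxidase subunit, and SYTL2, which links vesicles to Rab proteins, were also among the 15 highest. Another probe of each put SUM1315 only 0.47 and 0.18 above the nearest SUM159 array on the log2 scale, and a further probe 2.44 and 1.03 above it.

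Downward, NPTX2, a neuronal pentraxin, read 126 in SUM1315, against 6803, 8453 and 9982, at least 47.4-fold lower. Podoplanin (PDPN), a surface mucin-type glycoprotein, read 120.2, against 5189, 4183 and 4876, at least 29.1-fold lower. Both genes were far above background in every SUM159 array and below the limit in SUM1315. The adhesion G protein-coupled receptors ADGRE5 (CD97) and ADGRF5 were at least 29.5-fold and at least 27.3-fold lower in SUM1315, and the actin-binding RAI14 was at least 22.8-fold lower. FEZ1, a kinesin adaptor, was 27.9-fold lower by its brightest probe, while its other probes differed by -3.56 and -0.20 on the log2 scale.

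**Figure D2:**
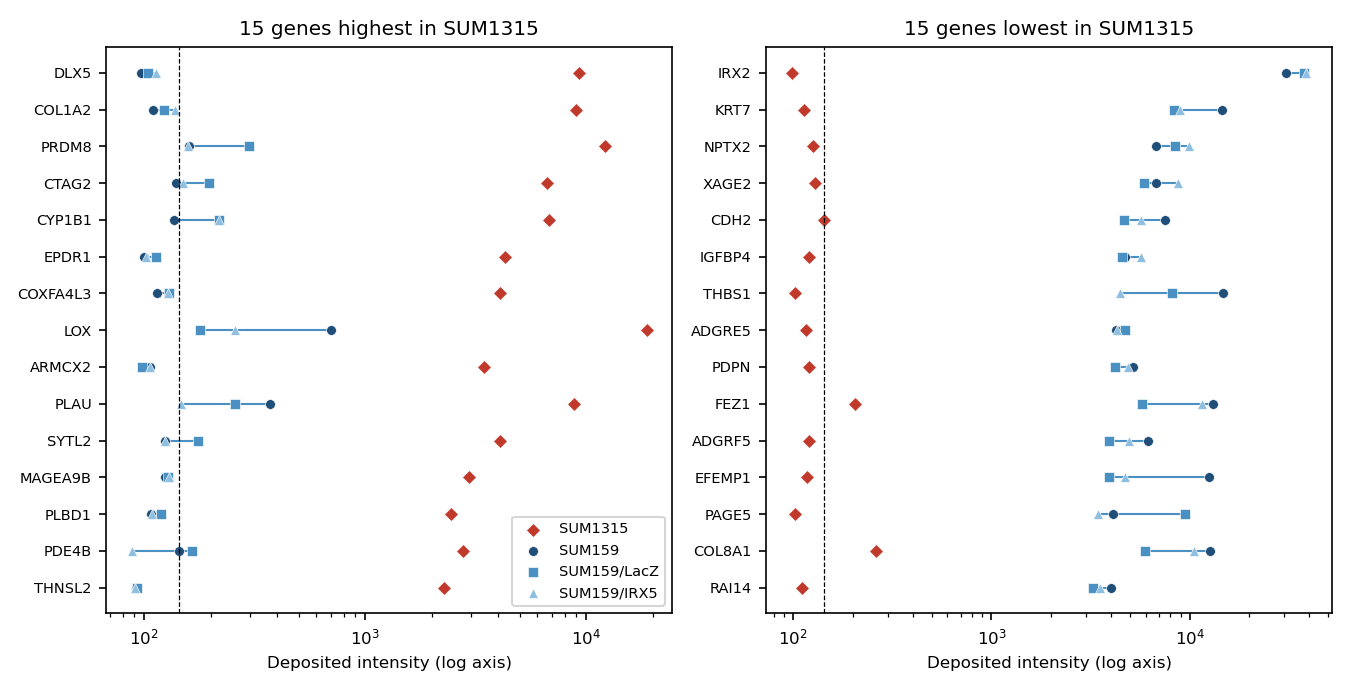
Deposited intensity on a log axis of the 15 genes with the greatest difference above (left panel) and below (right panel) the nearest SUM159 array, one row per gene; red diamonds are SUM1315, blue symbols the 3 SUM159 arrays joined by a line, and the dashed line is the detection limit. SUM1315 lies to the right of all SUM159 symbols in every row of the left panel and to their left in every row of the right panel.

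The Iroquois, DLX and MSX homeobox list held 12 genes compared, of which 4 were higher in SUM1315 (33.3%, against 6.29% of all genes) and 1 was lower (8.33%, against 4.9%). DLX5, which patterns limb, skull and placenta, had an intensity of 9257 in SUM1315, against 97.0, 104 and 113 in the SUM159 arrays, at least 64.5-fold higher. It lay below the limit in all 7 other arrays. DLX6, the neighbouring paralog, read 232 in SUM1315, against 95.6, 113 and 97.8, but with dim values at the limit its difference was 0.69 on the log2 scale, under 2-fold. DYNC1I1, a dynein intermediate chain gene a few places away on chromosome 7, read 1321 in SUM1315, against 108, 101 and 104, while SEM1 and SLC25A13 between them differed by less than 2-fold.

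The Iroquois genes went in opposite directions. IRX3 read 21556 in SUM1315, against 2871, 2249 and 3790.0, 5.69-fold higher. IRX5, which lies beside IRX3 on chromosome 16, read 1216 in SUM1315, against 163, 165 and 151, 7.38-fold higher, with the array labelled IRX5 the lowest of the 4. IRX6, the next gene in that cluster, read 188, against 103, 104 and 121, and was called in neither direction.

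In the cluster on chromosome 5, IRX2 read 98.4 in SUM1315, against 30576, 37799 and 38800.0 in the SUM159 arrays, at least 213-fold lower and the greatest difference of any named gene. It was also below the limit in MDA-MB231, at 109, and read 2199.8, 2842 and 2320.3 in HMLE/Foxq1, HMLE/Gcnt2 and HMLE/LacZ. Its divergent transcript IRX2-DT was lower too, at 111, against 674, 1605 and 1414. IRX4 and IRX1 in the same cluster stood near the limit in all 4 arrays and were called in neither direction. The neighbouring genes MRPL36 (mitochondrial ribosome), MED10 (Mediator) and NSUN2 (an RNA methyltransferase) were lower in SUM1315 as well.

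Of 21 other developmental homeobox and T-box genes, 3 were higher (14.3%, against 6.29% of all genes) and 2 lower (9.52%, against 4.9%). LHX2, a LIM homeobox gene of forebrain and hair follicle, read 1688 in SUM1315, against 98.3, 114 and 99.7, at least 11.8-fold higher. ALX1 and BARX1, which act in the developing face, were at least 5.49-fold and at least 4.32-fold higher. PITX1, a hindlimb gene, read 722, against 4384, 4579.7 and 7028, 6.07-fold lower, and the cardiac gene NKX2-5 was at least 3.55-fold lower. Of 20 HOX cluster genes, 2 were higher (10%, against 6.29% of all genes) and 1 lower (5%, against 4.9%). HOXB2 (at least 4.28-fold) and HOXB5 (at least 6.0-fold) were higher and HOXC4 was 2.98-fold lower. With the mean of its probes HOXC4 differed by -0.84 on the log2 scale, under 2-fold. Without SUM159/LacZ, 2 HOX genes were lower. LHX2, ALX1 and BARX1 were below the limit in every array except SUM1315, whereas HOXB2 read 842, 871 and 875 in the HMLE arrays.

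Of 13 keratin genes compared, 4 were lower in SUM1315 (30.8%, against 4.9% of all genes) and none was higher, and the median difference of the list was -0.79 on the log2 scale, against -0.01 over all genes. KRT7 read 114 in SUM1315, against 14523, 8318 and 8917, at least 57.9-fold lower. KRT8 read 102, against 1200.1, 882 and 715, at least 4.98-fold lower, and its pairing partner KRT18 read 93.5, against 379.8, 303 and 495, at least 2.11-fold lower, although a second KRT18 probe gave a log2 difference of -0.73. KRT80 was 5.04-fold lower. SUM1315 was thus below the limit for the first 3 of these keratins, all of which were detected in every SUM159 array.

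Junction genes showed no common direction, with 6.67% of the list higher, against 6.29% of all genes, and 6.67% lower, against 4.9%. Of 15 epithelial junction genes 1 was higher, cingulin (CGN, a tight junction scaffold), at 729 in SUM1315, against 103, 121 and 103, and 1 was lower, claudin CLDN1, at 181, against 511, 773 and 409. Without SUM159, 2 of these genes were lower, and without SUM159/LacZ, 2 were higher. The adhesion gene EPCAM read 201 in SUM1315, against 199, 176 and 183, and ERBB2 and EGFR also did not differ by the rule. Of 7 epithelial identity factors TFAP2C, a luminal regulator, was 2.01-fold lower (14.3% of the list, against 4.9% of all genes) and none was higher. Without SUM159, 1 of these factors was higher and 2 were lower.

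Mesenchymal genes differed in both directions. N-cadherin (CDH2) read 143 in SUM1315, at the limit, against 7492, 4679 and 5672 in the SUM159 arrays, at least 32.6-fold lower. Fibroblast activation protein (FAP), a membrane protease, read 1417 in SUM1315, against 110.3, 106 and 92.4, at least 9.87-fold higher. The platelet-derived growth factor receptors parted, with PDGFRA at 2747 in SUM1315, against 589.9, 559 and 505, and PDGFRB at 111, against 385, 381 and 427. Smooth muscle actin (ACTA2) was 3.43-fold higher. In all, 3 of 16 genes of this list were higher (18.8%, against 6.29% of all genes) and 2 lower (12.5%, against 4.9%).

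Among 11 transcription factors of the epithelial-mesenchymal transition, TWIST1 read 2699.7 in SUM1315, against 886, 868 and 598, 3.05-fold higher, and SOX9, a regulator of cartilage and progenitor cells, read 1155, against 98.1, 232 and 118, 4.98-fold higher. FOXQ1, a forkhead factor, read 126, against 1111, 2518 and 1568, at least 7.73-fold lower. FOXF2 and GMDS, which follow FOXQ1 in gene order on chromosome 6, were lower too. Fibronectin (FN1), read by a dim probe, and ZEB1 did not differ by the rule. Of the 11 transcription factors, 2 were higher (18.2%, against 6.29% of all genes) and 1 lower (9.09%, against 4.9%).

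Collagen genes were lower more often than higher. Of 24 collagens compared, 3 were higher (12.5%, against 6.29% of all genes) and 6 lower (25.0%, against 4.9% of all genes), with a median difference of -0.23 on the log2 scale. COL1A2, a chain of the fibrillar type I collagen, read 8987 in SUM1315, against 109, 123 and 138, at least 62.6-fold higher, whereas COL1A1, its partner chain, read 822, against 1136, 280.3 and 482, and was called in neither direction. COL5A2 read 5530.4, against 1166, 449.6 and 694, 4.74-fold higher, and COL5A1 of the same type V collagen read 772, against 3761, 1968 and 2599.9, 2.55-fold lower. For types I and V, then, a chain gene was called higher and its partner was not. Without SUM159, 6 collagens were higher.

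COL8A1, a network-forming collagen of basement membranes, read 261 in SUM1315, against 12687, 5983 and 10502, 22.9-fold lower, and 2 further probes were lower too. COL7A1, the anchoring fibril collagen, was 3.75-fold lower and COL16A1 3.19-fold lower. COL4A6 was at least 5.52-fold lower by its brightest probe, but a dim probe differed by -0.18 on the log2 scale. COL23A1, a transmembrane collagen, was 4.42-fold higher.

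Among 18 collagen-processing genes 3 were higher (16.7%, against 6.29% of all genes) and 4 lower (22.2%, against 4.9%). All 3 higher genes were lysyl oxidases, which oxidize lysines so that collagen and elastin can be cross-linked. LOX read 18696 in SUM1315, against 696, 178 and 257, 26.9-fold higher. LOXL4 was at least 5.73-fold higher, and LOXL1 2.58-fold by the brightest probe, with a log2 difference of 0.55 at another. The procollagen C-proteinase enhancer PCOLCE read 199, against 1241, 1837 and 1569, 6.23-fold lower. The proteinase BMP1 itself, the lysyl hydroxylase PLOD3 and the prolyl hydroxylase P3H2 were 2.20-fold, 2.85-fold and 2.50-fold lower. Without SUM159, 5 genes of this list were higher.

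Of 39 proteoglycan and matricellular genes 5 were higher (12.8%, against 6.29% of all genes) and 11 lower (28.2%, against 4.9%). Thrombospondin (THBS1), an inhibitor of angiogenesis and activator of latent TGF-beta, read 102 in SUM1315, against 14715, 8154 and 4462 in the SUM159 arrays, at least 31.1-fold lower. It read 19780.2 in MDA-MB231 and 8288, 24806 and 28945 in HMLE/Foxq1, HMLE/Gcnt2 and HMLE/LacZ, so SUM1315 was the only array of the 8 with THBS1 below the limit. Fibulin EFEMP1 was at least 27.2-fold lower, the collagen-binding proteoglycan decorin (DCN) 9.09-fold lower and the counter-adhesive protein SPARC at least 5.88-fold lower.

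The higher members included the fibulin EFEMP2, needed for elastic fibres, at 2521 in SUM1315, against 169.7, 152 and 145, 14.9-fold higher. Osteopontin (SPP1), a secreted integrin ligand, was at least 7.15-fold higher, and a second probe was higher too. The glypicans GPC3 and GPC4 were the others with THBS3, though GPC3 was under 2-fold with dim values at the limit. Thus members of the fibulin and thrombospondin families were found on both sides.

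Of 12 laminin and hemidesmosome genes LAMC3 was at least 3.01-fold higher, and LAMB3 (at least 2.62-fold), LAMB1 (2.37-fold) and LAMA5 (2.12-fold) were lower. Among 12 other integrin subunits, ITGA2 of the collagen receptor read 172 in SUM1315, against 953, 1035 and 978, 5.54-fold lower, and ITGA5 of the fibronectin receptor was 3.46-fold lower. ITGA4 (at least 2.93-fold) and ITGB2 (2.33-fold) were higher. Of 12 matrix metalloproteinase and TIMP genes MMP11 and MMP14 were at least 2.67-fold and at least 3.62-fold higher. The inhibitor TIMP3 read 94.1, against 252, 389.6 and 763, lower by the rule but under 2-fold with SUM1315 at the limit. The shares higher were 8.33% of the laminin list, 16.7% of the integrins and 16.7% of the metalloproteinase list, against 6.29% of all genes. The shares lower were 25.0%, 16.7% and 8.33%, against 4.9%.

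The plasminogen activators parted. Urokinase (PLAU) read 8748 in SUM1315, against 369.5, 259 and 147, 23.7-fold higher. Tissue plasminogen activator (PLAT) read 174, against 1176, 1273 and 2512, 6.77-fold lower. The serpins SERPINB1, an inhibitor of neutrophil proteases, and SERPINB5 (maspin) were at least 7.96-fold and at least 3.34-fold lower, and TFPI, an inhibitor of coagulation, was 2.11-fold lower by its brightest probe and differed by -0.31 on the log2 scale by another. In all 1 of 13 genes was higher (7.69%, against 6.29% of all genes) and 4 were lower (30.8%, against 4.9%). Without SUM159, 2 were higher. MDA-MB231 read 7841 for PLAU and 1051 for PLAT.

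Interferon-stimulated genes were the list with the greatest share of higher genes. Of 33 compared, 15 were higher in SUM1315 (45.5%, against 6.29% of all genes) and 3 lower (9.09%, against 4.9%), with a median difference of 1.07 on the log2 scale, against -0.01 over all genes. Without SUM159/IRX5, 5 were lower. HERC5, the ligase that attaches ISG15 to proteins, read 5606 in SUM1315, against 123, 385 and 188, 14.5-fold higher. IFIT1, which binds viral RNA, read 3773, against 190.4, 453 and 239.6, 8.32-fold higher. Both were lowest in untransfected SUM159 and highest among the SUM159 arrays in SUM159/LacZ, yet SUM1315 stood well above that array.

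IFI6, a mitochondrial survival protein, read 10822 in SUM1315, against 1799, 2066 and 1531, 5.24-fold higher, and a second IFI6 probe was higher too. The ubiquitin-like ISG15 read 3573, against 500.3, 851 and 510.5, 4.20-fold higher. The other 11 higher genes, named after their values were seen, were the RNA sensors RIGI and IFIH1, the transcription factors IRF7 and IRF9, the effectors MX1, OAS1, OAS2, IFIT3 and ISG20, and IFI35 and XAF1. Their folds lay between at least 2.01 (OAS1) and 3.94 (XAF1). HERC5, IFIT1 and IFIH1 alone among the 15 were also at least 2-fold above all 4 remaining arrays.

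The 3 lower genes encode membrane proteins that block virus entry or release. BST2 (tetherin) read 329.9 in SUM1315, against 2548, 2968 and 2709.5, 7.73-fold lower. IFITM3 read 2367, against 13323, 17571 and 21299, 5.63-fold lower, and IFITM2 was 3.25-fold lower, but these genes are near-identical in sequence and a probe may read both. IFI27 read 523 in SUM1315, inside the range of the SUM159 arrays, 592, 452 and 1162.

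Sequences upstream of the interferon-stimulated genes are shown because members on both sides, and members called in neither direction, carried the same motif. The letters GAAA, then any 2 bases, then GAAA again, the core of the interferon-stimulated response element, were searched on both strands of RefSeq promoter sequences (GRCh38.p14, 250 bases before to 50 after the start site). They were present in 19 of 27 interferon-stimulated genes with a promoter in that table (70.4%), in 283 of 9667 compared genes with a promoter (2.93%) and in 3.65% of all promoters in the table. By direction they were in 8 of 13 higher, 2 of 2 lower and 9 of 12 interferon-stimulated genes called in neither direction. A match describes letters and is no evidence of binding. For each gene below, 50 bases around the match nearest the start site are given 5′ to 3′ on the strand of the gene, with the match in capitals. They were taken from chr4:88457025-88457074 for HERC5, chr10:89392500-89392549 for IFIT1, chr1:1013370-1013419 for ISG15 and chr1:27672256-27672305 for IFI6 (minus strand), all higher in SUM1315. BST2 (chr19:17405725-17405774) and IFITM3 (chr11:320866-320915), both on the minus strand, were lower, and IFI27 (chr14:94110621-94110670) was called in neither direction.
HERC5: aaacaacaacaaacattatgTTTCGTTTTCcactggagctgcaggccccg
IFIT1: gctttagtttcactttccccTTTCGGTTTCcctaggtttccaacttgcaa
ISG15: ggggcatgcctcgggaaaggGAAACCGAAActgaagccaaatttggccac
IFI6: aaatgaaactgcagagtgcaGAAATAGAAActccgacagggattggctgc
BST2: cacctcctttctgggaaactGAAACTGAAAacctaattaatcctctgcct
IFITM3: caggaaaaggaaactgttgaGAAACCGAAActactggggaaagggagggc
IFI27: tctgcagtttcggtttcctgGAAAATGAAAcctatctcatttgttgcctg
The capitals read GAAA first where the motif lies on the strand of the gene and TTTC first where it lies on the opposite strand, as in HERC5 and IFIT1.

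**Figure D3:**
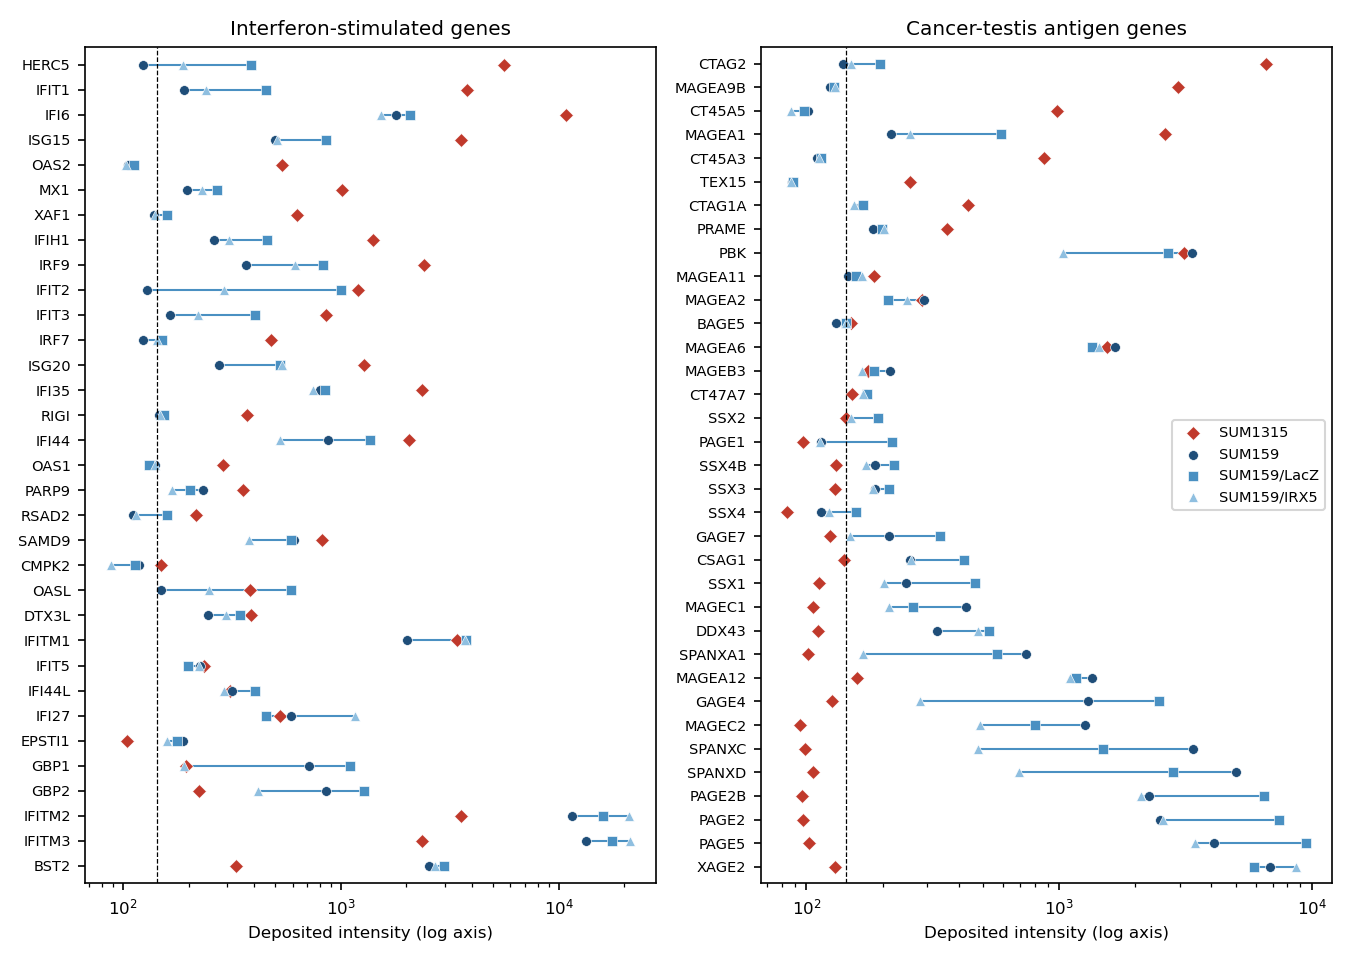
Deposited intensity on a log axis of every compared gene of the interferon-stimulated list (left panel) and the cancer-testis antigen list (right panel), ordered by the difference of SUM1315 from the SUM159 mean; red diamonds are SUM1315, blue symbols the 3 SUM159 arrays joined by a line, and the dashed line is the detection limit. In the left panel most diamonds lie to the right of the SUM159 symbols, except at the bottom (BST2, IFITM3 and IFITM2), and in the right panel they lie far right at the top (CTAG2) and far left at the bottom (XAGE2).

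Of 21 antigen presentation genes 6 were higher (28.6%, against 6.29% of all genes), none was lower and 15 were called in neither direction, with a median difference of 0.40 on the log2 scale. The class II chain HLA-DPA1 read 1412 in SUM1315, against 104, 104 and 114, at least 9.84-fold higher. HLA-DMB and HLA-DMA, which load peptides on class II molecules, were at least 3.31-fold and 2.16-fold higher. HLA-E, a class I ligand of natural killer cell receptors, was 2.46-fold higher, the peptide transporter TAP1 2.10-fold, and tapasin (TAPBP) 2.69-fold by its brightest probe but 0.34 on the log2 scale by another. HLA genes are alike in sequence, so their probes may read more than 1 of them.

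Of 21 cytokines and chemokines 3 were lower (14.3%, against 4.9% of all genes), 1 was higher (4.76%, against 6.29%) and 17 were called in neither direction. After normexp background correction 2 were higher, and limma called 1 lower, without CXCL8 and IL1A. Interleukin gene IL32 read 304 in SUM1315, against 4797, 3531 and 6107, 11.6-fold lower. The neutrophil chemokine CXCL8 read 120.2, against 14075, 15557 and 1146, at least 7.98-fold lower than the lowest, and it varied widely among the SUM159 arrays, with the array labelled IRX5 far below the other 2. IL1A was at least 2.14-fold lower. CSF1, the macrophage growth factor, was the higher gene, at 1544, against 192, 192 and 124, 8.02-fold. Without SUM159/LacZ 2 were higher. Of 12 NF-kB feedback and target genes only TNFAIP2 was called, lower (8.33%, against 4.9% of all genes), and without SUM159/IRX5 3 were lower.

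Cancer-testis antigens were called in both directions. Of 67 on the array 35 were compared, of which 7 were higher in SUM1315 (20%, against 6.29% of all genes) and 10 lower (28.6%, against 4.9%), and 18 were called in neither direction, such as MAGEA6, at 1542 in SUM1315, against 1664, 1343 and 1438. The median difference was -0.55 on the log2 scale, against -0.01 over all genes. CTAG2 (LAGE-1) read 6601 in SUM1315, against 139, 196 and 149.99, 33.8-fold higher by its brightest probe. A dimmer CTAG2 probe read 262, against 123, 123 and 118, a difference of 1.09 on the log2 scale. MAGEA9B read 2956, against 124, 128 and 129, at least 20.6-fold higher, and MAGEA1 was 4.47-fold higher. The paralogs CT45A5 and CT45A3, which a probe may not tell apart, were at least 6.83-fold and at least 6.09-fold higher, and the CT45A5 probe that differed least stood at 0.35 on the log2 scale. CTAG1A and TEX15 were the other higher genes, TEX15 by under 2-fold with dim values at the limit.

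On the other side, XAGE2 read 129 in SUM1315, against 6797, 5918 and 8689, at least 41.2-fold lower. PAGE5 read 102, against 4110.1, 9479.7 and 3434, at least 23.9-fold lower, and its near-identical relatives PAGE2 and PAGE2B were at least 17.4-fold and at least 14.7-fold lower. SUM1315 was below the limit for each of these, while SUM159/LacZ had the highest PAGE values. MAGEA12 was 6.94-fold lower, so MAGEA members lay on both sides. SPANXC, SPANXD, MAGEC2, DDX43 and GAGE4 were the other lower genes, GAGE4 by under 2-fold with SUM1315 at the limit. In SPANXD the array labelled IRX5 stood below the other SUM159 arrays, at 4988, 2832 and 695. Of the called genes, only DDX43 (chromosome 6) and TEX15 (chromosome 8) had a chromosome other than X, and GAGE4 had none in the annotation.

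Insulin-like growth factor binding proteins also differed in both directions. Of 10 genes of this system 3 were higher (30%, against 6.29% of all genes) and 3 lower (30%, against 4.9%). IGFBP3 read 3299.7 in SUM1315, against 169, 129 and 759, 4.35-fold higher than the array labelled IRX5, which was the highest of the SUM159 arrays. IGF2BP3, an oncofetal RNA-binding protein, read 3261, against 207, 168 and 165, 15.8-fold higher, and IGFBP5 was under 2-fold higher with dim values at the limit.

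IGFBP4 read 119.7 in SUM1315, against 4733, 4537 and 5683, at least 31.6-fold lower. IGFBP6, which prefers IGF2, was 9.74-fold lower and IGFBP7 at least 3.45-fold lower. All 3 were lower in SUM1315 than in all 7 other arrays by at least 2-fold, IGFBP4 reading 12444 in MDA-MB231.

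Receptors and ligands of growth factor pathways gave smaller shares than the insulin-like growth factor list. Of 36 receptor tyrosine kinase and ligand genes 4 were higher (11.1%, against 6.29% of all genes) and 3 lower (8.33%, against 4.9%). The collagen receptor DDR2 read 2664 in SUM1315, against 111, 291 and 196, 9.17-fold higher, and the lymphangiogenic factor VEGFC read 3149.8, against 574, 346 and 173, 5.49-fold higher. The related DDR1 was 5.19-fold higher, with another probe at 0.64 on the log2 scale. EFNB3 was at least 5.47-fold higher, while its family members EFNB2 and EFNA1 were 4.24-fold and 2.14-fold lower, with a log2 difference of -0.81 at a second EFNA1 probe. Without SUM159, 5 genes of this list were lower.

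Of 28 TGF-beta, BMP and activin genes 2 were higher (7.14%, against 6.29% of all genes) and 3 lower (10.7%, against 4.9%). The type II receptor TGFBR2 read 642 in SUM1315, against 3468, 4212 and 4089, 5.40-fold lower, but at a dim second probe SUM1315 lay inside the SUM159 range. The activin-binding FSTL3 and the pseudoreceptor BAMBI were 4.72-fold and 3.58-fold lower. ID2 and ID4, inhibitors of helix-loop-helix factors, were higher, ID2 at 4263, against 2087, 1496 and 617, 2.04-fold, and ID4 by under 2-fold with dim values at the limit. Without SUM159, 5 of these genes were higher and 5 lower.

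Of 30 WNT pathway genes 4 were higher (13.3%, against 6.29% of all genes) and 3 lower (10%, against 4.9%). WNT5B, a ligand of the non-canonical branch, read 1883 in SUM1315, against 167, 132 and 147, 11.3-fold higher. DKK3, a secreted dickkopf relative, read 1009, against 7820.0, 5079 and 6165, 5.03-fold lower, as was another bright probe, whereas 2 dim probes were not. FZD8 was at least 2.40-fold, FZD9 2.20-fold and RSPO2 2.42-fold higher, and FZD3 and the receptor ROR1 2.23-fold and at least 2.14-fold lower. Of 16 ERK feedback genes PHLDA1 was 4.07-fold higher and the phosphatase DUSP1 2.85-fold lower. Each was 6.25% of the list, against 6.29% of all genes higher and 4.9% lower. Leaving out SUM159 made 2 lower and leaving out SUM159/IRX5 made 2 higher.

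Aldo-keto reductases reduce steroids and prostaglandins. AKR1C3 read 193 in SUM1315, against 4070.2, 10483 and 11329, 21.1-fold lower, and AKR1C2 read 103, against 2952, 10680.4 and 19256, at least 20.6-fold lower; the 2 are alike in sequence. In both genes untransfected SUM159 was the lowest of the SUM159 arrays and still well above SUM1315. The quinone reductase NQO1 went the other way, at 19780.2 in SUM1315, against 4707, 4122 and 6601, 3.0-fold higher. The list of 24 had 2 higher (8.33%, against 6.29% of all genes) and 4 lower (16.7%, against 4.9%).

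Of 21 genes of the p53, CDKN and apoptosis list 4 were lower (19.0%, against 4.9% of all genes) and none was higher. CASP1, the inflammatory caspase, read 92.5 in SUM1315, against 2008, 4369.8 and 1146, at least 7.98-fold lower, and it was lower by a second probe too. The anti-apoptotic BCL2L1 and MCL1 were 2.48-fold and 2.57-fold lower, with a log2 difference of -0.60 at a second MCL1 probe, and SESN1, a p53 target, 2.25-fold lower. Without SUM159, 1 gene of this list was higher. Of 39 cell cycle genes the phosphatase CDC25C read 4224, against 572, 602 and 487, 7.02-fold higher, and cyclins CCND1 and CCND2 were 3.77-fold and at least 2.66-fold lower. CENPA was the other higher gene, so 5.13% of this list were higher, against 6.29% of all genes, and 5.13% lower, against 4.9%. Without SUM159, 8 were higher.

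Surface and calcium-binding genes gave single large differences. Of 14 S100 genes S100A16 read 110.0 in SUM1315, against 4603, 2892 and 4815, at least 20.1-fold lower, while S100A11 was 2.35-fold higher and S100P, called lower but under 2-fold with SUM1315 at the limit, varied widely among the SUM159 arrays, at 134, against 283, 819.7 and 3521. In all, 1 S100 gene was higher (7.14%, against 6.29% of all genes) and 2 were lower (14.3%, against 4.9%). Without SUM159, 4 S100 genes were lower, and without SUM159/LacZ, 2 were higher. The hyaluronan receptor CD44 read 17756 in SUM1315, against 8245, 7184 and 5989, 2.15-fold higher, and 2 further probes were higher too. CD24 read 127, against 1379, 1286 and 137, and was not counted because SUM1315 lay within 2-fold of the array labelled IRX5, where both were below the limit. Of 16 stem-associated genes, 2 were higher (12.5%, against 6.29% of all genes) and 1 lower (6.25%, against 4.9%). Without SUM159/IRX5, 3 were lower.

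Each housekeeping list had at most 3 genes called in each direction by the main rule. Of 73 ribosomal protein genes 2 were higher (2.74%, against 6.29% of all genes) and 3 lower (4.11%, against 4.9%). Their median difference was -0.27 on the log2 scale, against -0.01 over all genes. RPL39L, a copy best known from testis, read 4850.1, against 216, 322 and 188, 15.04-fold higher. RPL14 was called higher and RPL13 lower by their brightest probes, but another probe of each differed by -0.03 and 0.07 on the log2 scale, in the opposite direction. Without SUM159/LacZ, 5 were lower.

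Of 32 glycolysis and hypoxia genes 1 was higher (3.12%, against 6.29% of all genes) and 2 lower (6.25%, against 4.9%). The lower genes included the glucose transporter SLC2A1, at 510.0, against 3089.7, 2135 and 2231. Without SUM159, 4 were higher and 4 lower. The transcription factor HIF1A, no member of that list, read 919, against 3244, 4491 and 3363, 3.53-fold lower. Of 23 cholesterol and fatty acid genes 2 were higher (8.7%, against 6.29% of all genes) and 2 lower (8.7%, against 4.9%). The ATF4 and unfolded protein list had a median difference of -0.50 on the log2 scale, against -0.01 over all genes. In it 1 of 27 genes was lower (3.7%, against 4.9% of all genes), CEBPB, and none was higher. Without SUM159, 9 of that list were lower and 1 was higher, and without SUM159/LacZ, 2 were lower.

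**Figure D4:**
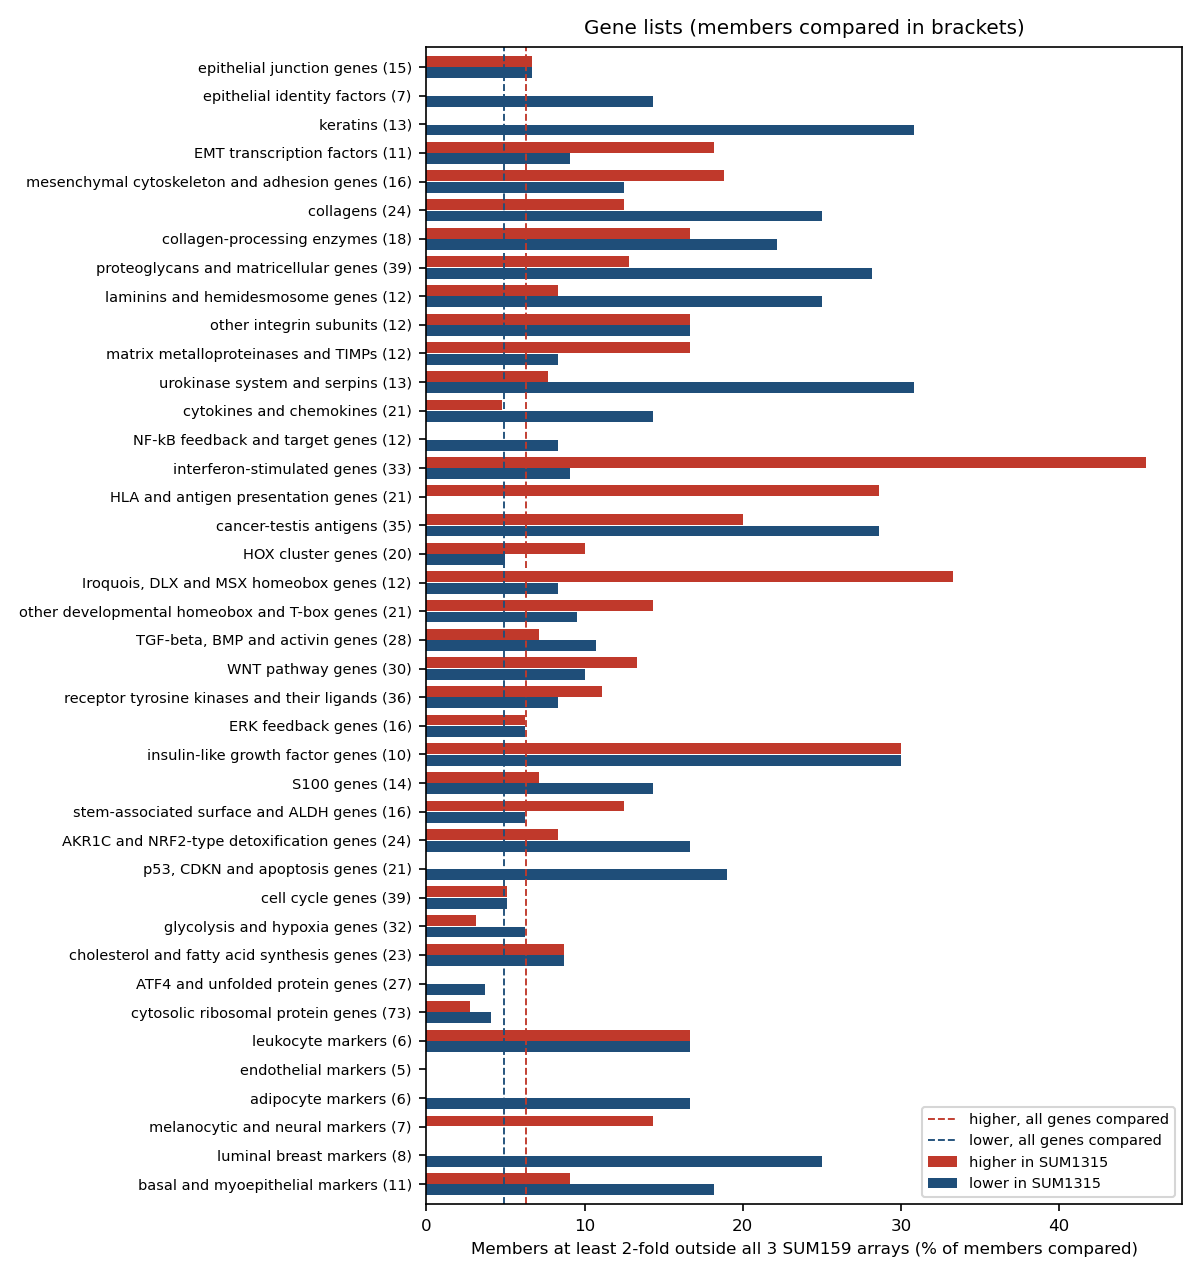
Share of each gene list (percent of its compared members, number in brackets) that lay at least 2-fold above (red) or below (blue) all 3 SUM159 arrays in SUM1315; dashed lines mark the shares over all genes compared, 6.29% and 4.9%. Interferon-stimulated genes have the longest red bar at 45.5%, and keratins and the urokinase list the longest blue bars at 30.8%.

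The rule did not use position, and the called genes were not spread evenly along the chromosomes. Gene order was taken from the RefSeq annotation of GRCh38.p14, which placed 11756 of the 11766 genes. On chromosome 5, 58 of 519 genes were lower (11.2%, against 4.9% of all genes). On chromosome 6, 75 of 649 genes were higher (11.6%, against 6.29%), on chromosome 21, 14 of 126 (11.1%), and on the X chromosome 42 of 432 (9.72%). Chromosome 21 also had the highest median difference of any autosome, 0.36 on the log2 scale, against -0.01 over all genes.

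**Figure D5:**
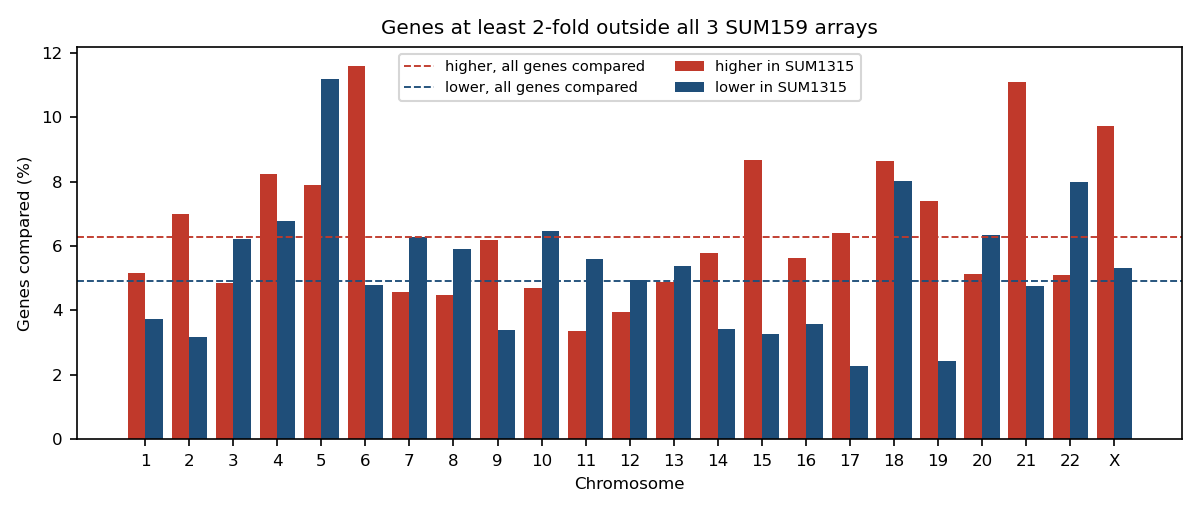
Percent of the compared genes of each chromosome that lay at least 2-fold above (red) or below (blue) all 3 SUM159 arrays in SUM1315; dashed lines mark the shares over all genes compared. The tallest blue bar is chromosome 5 at 11.2%, and the tallest red bars are chromosome 6 at 11.6% and chromosome 21 at 11.1%.

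The densest stretch was on chromosome 5, where 16 of 30 neighbouring genes from ZNF622 to LIFR were lower (53.3%, against 4.9% of all genes). It held 2 runs in which every compared gene was lower. The first comprised SKP2, a ubiquitin ligase subunit that removes cell cycle inhibitors, NADK2, SLC1A3 and NIPBL. The second comprised NUP155, WDR70, EGFLAM, LIFR and, just past the stretch, OSMR. The glutamate transporter SLC1A3 read 127 in SUM1315, against 1211, 1282 and 1047, at least 7.29-fold lower. The matrix protein gene EGFLAM read 109, against 1238, 2999.7 and 1666, at least 8.62-fold lower.

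The receptor gene OSMR read 187 in SUM1315, against 659, 527 and 585, 2.83-fold lower, and its relative LIFR read 121, against 286, 363 and 442, just under 2-fold with SUM1315 at the limit. NIPBL, the cohesin loader, was 2.39-fold lower by the brighter of its probes. RAI14, described above, lies in the same stretch. SKP2 was 2.15-fold lower by its brightest probe and differed by -0.52 on the log2 scale by another, and a dim NUP155 probe differed by -0.07.

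Stretches of higher genes were less dense. From DEK to H3C4 on chromosome 6, 11 of 30 genes were higher (36.7%, against 6.29% of all genes), with ALDH5A1, KIAA0319, TDP2 and ACOT13 as neighbours. ACOT13, a thioesterase, read 13107 in SUM1315, against 2324, 2883 and 3692, 3.55-fold higher. The histone genes H2BC4, H2AC6 and H2BC5 were higher in the same stretch, and probes of histone genes may read near-identical copies. From PEX11A to LRRC28 on chromosome 15, 11 of 30 genes were higher (36.7%), and from TYMSOS to IMPA2 on chromosome 18, 10 of 30 (33.3%). The stretch on chromosome 18 ended in GNAL, CHMP1B, MPPE1 and IMPA2, with the inositol phosphatase IMPA2 at 5926, against 2264, 1816 and 1867, 2.62-fold higher.

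Families described above lay in such stretches too. From SMARCD1 to IGFBP6 on chromosome 12, 7 of 30 genes were lower (23.3%, against 4.9% of all genes), among them KRT80, KRT7, KRT8 and KRT18. From CLCN5 to PAGE5 on the X chromosome 7 of 30 were lower (23.3%), among them XAGE2, PAGE2B, PAGE2 and PAGE5. Each was picked as the densest stretch of lower genes on its chromosome.

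By the main rule, with measured values of the brightest probe, there were 25 runs of at least 3 neighbouring called genes. Some rest on weak calls, such as MOCOS, just inside the threshold, and RBPJ, which another probe put at 0.024 on the log2 scale. The run TM4SF18, TM4SF1, WWTR1 and COMMD2 on chromosome 3 was higher. The tetraspanin-like TM4SF1 read 30125 in SUM1315, against 7008, 7133 and 1667, 4.22-fold higher, and WWTR1, the Hippo pathway effector TAZ, was 3.61-fold higher. On chromosome 11 the globin genes HBG2 and HBE1 with the olfactory receptor OR51B4 were lower. With SUM1315 at the limit OR51B4 was under 2-fold lower, and this run would fall short of 3 genes. The embryonic globin gene HBE1 read 94.2 in SUM1315, against 1402, 2559 and 2129.6, at least 9.77-fold lower, and it was below the limit in all arrays other than those of SUM159. Since stretches and runs were picked as the densest of many, their shares are descriptions.

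Set beside the remaining arrays, 331 genes (2.81%) were at least 2-fold higher in SUM1315 than in all 7 others, and 172 (1.46%) were at least 2-fold lower. DLX5, COL1A2, LOX, CYP1B1 and IRX3 were among those above all others, and KRT7, THBS1, EFEMP1 and RAI14 among those below. LOX read 18696 in SUM1315, 510.5 in MDA-MB231 and 1125, 366 and 899.6 in HMLE/Foxq1, HMLE/Gcnt2 and HMLE/LacZ. MDA-MB231, the third basal-like line, lay at least 2-fold above the same 3 SUM159 arrays for 570 of 11649 genes (4.89%) and below them for 460 (3.95%), together 8.84%, and because the SUM159 arrays are shared these counts are only set side by side. EPDR1 and PLAU were bright in both MDA-MB231, at 6017 and 7841, and SUM1315, whereas IRX2, NPTX2 and XAGE2 were below the limit in both.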

How the data were processed

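Total RNA was labelled with biotin and hybridised to Illumina HumanRef-8 v3 arrays, per the labels' protocols. The deposited values are intensities on a linear scale that the authors had already normalised, with the background still in them; the submitters' processing notes list GenomeStudio, lumi 1.14 and R 2.11.1. Sorted values of the 8 arrays differed by at most 1.27% (coefficient of variation) and medians ran from 159.72 to 159.9. These values describe the normalisation and not the precision of single genes, which the number of arrays, the background and probe choice limit. Of called genes with another detected probe, 60 of 144 higher and 35 of 118 lower genes were at least 2-fold at all of them. In 12 higher and 7 lower genes another probe had the opposite sign. A second deposited table has 16 signal columns that could not be tied to samples and was not used.

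Of 24526 probes 21834 carried 1 gene, 2692 were left unnamed, and 21813 symbols were updated through RefSeq. The brightest probe, by the mean over 8 arrays, stood for a gene, and levels were compared only within a gene. The detection limit of 143.6 mirrors the lower tail (0.01) of the intensities around their mode of 110.66. Log2 intensities of SUM1315 were compared with each SUM159 array in Python 3.11.15 (numpy 2.4.6, pandas 2.3.3); limma 3.58.1 in R 4.3.3 was an alternative with Benjamini-Hochberg adjustment. The comparison script was tested on simulated data.

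The members and the 40 gene lists were chosen with earlier results of these data known. In each list up to 4 genes per direction with the largest difference were named, beside the 15 largest in each direction, the listed neighbours of homeobox genes and genes in runs. Alternatives covered background, normalisation, probe choice, filter, fold and arrays.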

Additional observations from a re-analysis of the deposited data

How the results depend on the processing

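The counts of 740 higher and 577 lower genes stayed within 1.5 times under every alternative except the fold threshold. They were 830 and 676 after normexp background correction (offset 50), 765 and 552 after cyclic loess, and 742 and 575 with arrays centred on the median. They were 654 and 505 with the mean of a gene's probes, 657 and 494 with its least different probe, and 685 and 545 with dim values at the limit. With a looser detection limit or no filter they were 740 and 577, which was fixed by construction. The lowest intensity was 73.3, so a value 2-fold above another lay above the limit in any case. At 3-fold they were 305 and 262 (4.82% of genes together), and at 1.5-fold 1423 and 1203 (22.3%). Leaving out each SUM159 array in turn gave 815 to 891 higher and 642 to 772 lower genes, 12.4% to 14.1% together, which by construction can only add genes. No gene was called in opposite directions in any of these settings. Only background correction, normalisation and probe choice could have shown a reversal, because the other settings keep the sign of a called gene. A limma fit, with the 3 SUM159 arrays as 1 group and the lone SUM1315 array assumed to vary like them, called 795 higher and 578 lower genes at an adjusted p of 0.05 and 2-fold, of which 696 and 491 were shared. It called 220 of the 242 named genes, and missed ID2, IGFBP3, TM4SF1, CXCL8, IL1A, CLDN1, TFAP2C, P3H2, TFPI, EFNA1, S100P, SESN1, SKP2 and TIMP3 among others. Under limma the count of lower genes was 0 in the epithelial junction, epithelial identity and matrix metalloproteinase lists and 1 in the S100 and cholesterol lists, TGF-beta genes had 1 higher, and glycolysis genes had 2 higher. Choosing the least different probe turned the difference of RPL14 to -0.028, of RPL13 to 0.068 and of RBPJ to 0.024 on the log2 scale. No paired analysis was possible because SUM1315 has 1 array. Among higher genes 224 were below the limit in all SUM159 arrays, and among lower genes 190 were below it in SUM1315, so their folds are bounds.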
